A study of Mus musculus with 4 samples.

Results

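Interleukin-6 (IL-6) family signalling was described in normal and ischemic mouse kidney through 8 genes that were chosen by name, Il6ra, Il6st, Osmr, Lifr, Lif, Stat3, Socs3 and Il1rn, of the 32285 genes in each spatial count table. All 8 genes were found in the tables and passed the filter on low counts in the whole-section comparison, in which 15305 genes were tested. The kidneys came from male WT C57BL/6J mice aged 7 to 8 weeks. Sections of left kidney, 10 µm thick, were captured with Visium, an array of barcoded spots that each cover a small region of tissue and can hold several cells of different types. The 2 normal sections came from control mice, for which the labels mention no sham surgery, so clamping and the surgery around it cannot be told apart. The 2 ischemic sections came from mice with both renal pedicles clamped for 30 min and then 24 h of reperfusion. The labels do not say which mouse each section came from, so p-values for ischemic against normal sections measure the spread between sections, which may be technical.

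Cytokines of the IL-6 family bind receptor pairs that share the signalling subunit gp130, the product of Il6st. Il6ra encodes the IL-6 binding chain, Osmr the oncostatin M receptor chain and Lifr the leukemia inhibitory factor (LIF) receptor chain, while Lif encodes one of the ligands. Receptor-bound Janus kinases phosphorylate the transcription factor STAT3, which enters the nucleus and induces Socs3, an inhibitor that binds gp130 and the kinases and so limits the signal. Il1rn encodes the interleukin-1 receptor antagonist, an acute-phase gene that STAT3 is among the factors known to induce. In the kidney this pathway is known for the acute-phase response of injured tubules. Transcript counts do not measure phosphorylated STAT3 or any protein.

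The depth ranged from 25957128 to 44528078 unique molecular identifiers (UMIs) per section over 2401 to 2682 tissue spots, 10312 spots in all. Spots were assigned to cortex, outer stripe, inner stripe, inner medulla and pelvis from marker genes in the spot and its neighbours. Kidney markers were present in each section, but several were much lower after ischemia: the proximal tubule phosphate transporter Slc34a1 was at 2386 and 2043 normalised CPM (counts scaled to a common total of 1e+06) in the normal sections and 186 and 174 CPM in the ischemic ones, and the outer stripe marker Slc7a13 was at 646 and 474 CPM against 13.6 and 14.4 CPM. The urothelial marker Upk1b was at 19.1 and 41.2 CPM in normal and 2.21 and 3.98 CPM in ischemic sections, and only 28.3% and 28.5% of the ischemic pelvis spots kept that zone when the spot was scored without its neighbours, so pelvis values are given as a description of those spots. Boundary spots, whose highest zone scores lay within 0.25 SD of each other, made up 16.4% and 19.2% of normal inner medulla spots. In ischemic sections they made up 40.4% and 46.7%. The inner medulla held 5.12% and 8.35% of normal and 12.2% and 11.5% of ischemic spots, so it may not cover the same tissue. Fat was unevenly sampled: 95 and 47 spots of the normal sections and 8 and 6 spots of the ischemic sections held at least 2 counts of an adipocyte marker list, and 49 of those in normal section 1 lay among its 134 inner medulla spots.

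The genes lie on GRCm38, the build also called mm10, as follows: Il6ra at chr3:89864059-89913196 (minus strand), Il6st at chr13:112464070-112510086 (plus), Osmr at chr15:6813577-6874969 (minus), Lifr at chr15:7090614-7197489 (plus), Lif at chr11:4257557-4272514 (plus), Stat3 at chr11:100885098-100939540 (minus), Socs3 at chr11:117966079-117970047 (minus) and Il1rn at chr2:24336853-24351494 (plus). GENCODE annotates each as protein coding. The 250 bases before the start of 4 of them, from RefSeq on GRCm38.p6, are shown because Stat3, its induced inhibitor Socs3 and the ligand Lif rose after ischemia while the receptor Lifr fell. Capitals mark the palindromic letters TTCNNNGAA, the spacing that STAT factors are known to bind, which read the same on both strands.
Stat3 (chr11:100939541-100939790, minus strand): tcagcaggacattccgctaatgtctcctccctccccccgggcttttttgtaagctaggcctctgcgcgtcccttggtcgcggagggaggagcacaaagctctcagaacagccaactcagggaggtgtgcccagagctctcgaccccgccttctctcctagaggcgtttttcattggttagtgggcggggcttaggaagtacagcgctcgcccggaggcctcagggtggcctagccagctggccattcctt
Socs3 (chr11:117969367-117969616, minus strand): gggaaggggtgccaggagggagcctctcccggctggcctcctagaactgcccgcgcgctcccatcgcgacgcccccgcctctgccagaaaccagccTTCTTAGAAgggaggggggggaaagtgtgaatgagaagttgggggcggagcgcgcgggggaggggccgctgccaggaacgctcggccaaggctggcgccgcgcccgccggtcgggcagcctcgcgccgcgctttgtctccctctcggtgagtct
Lif (chr11:4257318-4257567, plus strand): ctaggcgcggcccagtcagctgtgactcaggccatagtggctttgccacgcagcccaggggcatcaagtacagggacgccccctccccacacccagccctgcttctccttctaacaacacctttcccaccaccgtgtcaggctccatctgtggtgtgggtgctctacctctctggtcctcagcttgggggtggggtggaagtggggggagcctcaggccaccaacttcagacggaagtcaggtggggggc
Lifr (chr15:7129322-7129571, plus strand): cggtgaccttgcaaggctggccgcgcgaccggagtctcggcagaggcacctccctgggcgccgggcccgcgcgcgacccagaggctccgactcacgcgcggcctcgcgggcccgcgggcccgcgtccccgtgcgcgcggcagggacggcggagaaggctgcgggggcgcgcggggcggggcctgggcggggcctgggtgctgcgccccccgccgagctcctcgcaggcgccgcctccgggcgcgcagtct
The last few bases of the Lif and Lifr stretches and part of the Socs3 stretch lie in GENCODE first exons, the latter of a transcript that GENCODE does not call coding. Socs3 was the only one of the 8 genes whose stretch held these letters, as TTCTTAGAA starting 154 bases before the RefSeq start. Over all 27025 genes with such a stretch, 8.13% held them, and a match is a description of the letters, not of binding. The stretches of the other genes, Il1rn and Lifr with several starts included, held none.

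**Figure D1:**
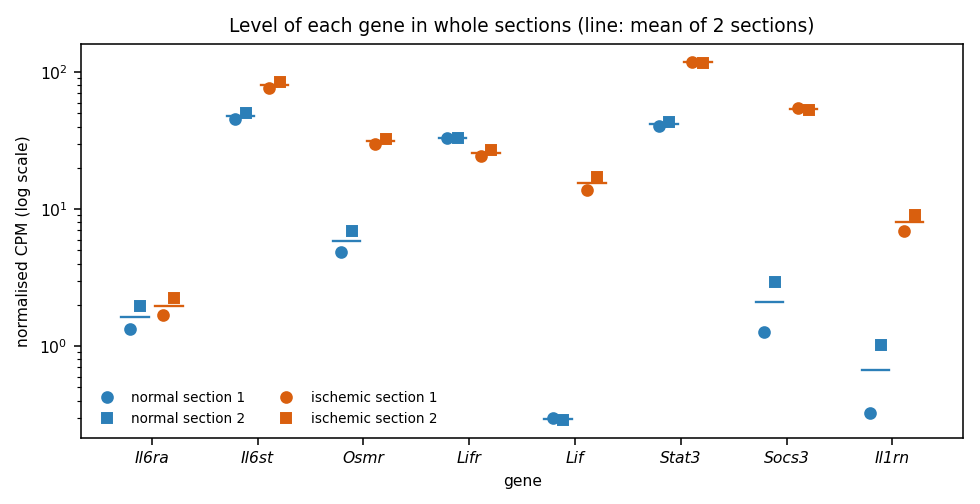
Normalised CPM (log scale) of the 8 genes in whole sections, with a point for each normal (blue) and ischemic (orange) section and a line at the mean of 2 sections. The ischemic points of Lif (13.8 and 17.3 CPM) and Socs3 (54.7 and 52.7 CPM) lie far above the normal ones, while those of Il6ra overlap them.

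Over whole sections, the ligand Lif, the receptor chains Osmr and Il6st, the transcription factor Stat3 and the genes Socs3 and Il1rn were higher in ischemic than in normal kidney, Lifr was lower, and Il6ra did not pass the test. In all, 7 of the 8 genes passed an adjusted p of 0.05 in edgeR, 6 higher and 1 lower, where 60.6% of all genes tested passed, 31.0% higher and 29.7% lower. The median log2 fold change was 1.96 over the 8 genes and 0.04 over all genes. Without the scaling for library composition the median of all genes moved to 0.31, and 67% instead of 51.1% of the called genes were higher. In spots that mix cells, fewer cells of a type and less RNA per cell cannot be told apart.

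Among the ligands, Lif was at 0.298 and 0.290 CPM (11 and 8 counts) in normal sections and at 13.8 and 17.3 CPM (467 and 495 counts) in ischemic ones. The groups lay far apart, and the log2 fold change was 5.70 ± 0.32 (SE, edgeR adjusted p = 2.18e-07). Il6 itself had no count in either normal section and 71 and 78 counts in the ischemic sections. With the normal group set to a floor of 3 counts over the group, the bound was 51.2-fold higher. The 95% counting interval reached down to 41.1-fold. Il11, a ligand that signals through its own receptor chain with gp130, rose from 0.271 and 0.181 CPM to 18.0 and 18.1 CPM. Clcf1, a ligand that acts through the Cntfr receptor, also rose, with a log2 fold change of 3.92. Ebi3, a subunit shared by IL-27 and IL-35, fell by 0.73 on the log2 scale (edgeR adjusted p = 0.0219). Of the 10 ligand genes, 8 could be tested, of which 5 rose, 1 fell and 2 (Ctf1 and Cntf) did not pass. Among all genes tested, 31.0% rose and 29.7% fell. Osm was too low to test (0 and 2 counts in the normal against 8 and 7 in the ischemic sections), as was Il27. The median log2 fold change of the ligands was 3.94, and as Il6 lies above that value with its bound as well as with its fitted value, the median is the same with either.

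Receptor chains moved in both directions. Osmr was at 4.85 and 6.95 CPM in normal and 29.8 and 32.8 CPM in ischemic sections, a log2 fold change of 2.42 ± 0.15 (SE, edgeR adjusted p = 2.29e-06). Il6st was at 45.5 and 50.2 CPM against 76.6 and 84.3 CPM, a rise of 0.75 ± 0.105 on the log2 scale (SE, edgeR adjusted p = 2.77e-04). For both genes each ischemic section was above each normal one. Lifr was at 33.0 and 32.9 CPM in normal sections and at 24.3 and 27.1 CPM in ischemic ones, and fell by 0.36 ± 0.096 on the log2 scale (SE, edgeR adjusted p = 0.0101). This call was lost without the composition scaling (log2 fold change -0.09, adjusted p = 0.63) and without either ischemic section (adjusted p = 0.228 without ischemic section 1 and 0.0549 without section 2). Il6ra was at 1.33 and 1.96 CPM in normal and 1.68 and 2.23 CPM in ischemic sections, with overlapping groups and a log2 fold change of 0.26 ± 0.28 (SE, edgeR adjusted p = 0.445). Of the 7 receptor genes tested, 2 rose and 3 fell, where 31.0% of all genes tested rose and 29.7% fell. Besides Lifr, the IL-11 receptor chain Il11ra1 fell from 108 and 104 CPM to 47.1 and 47.8 CPM, and the ciliary neurotrophic factor receptor Cntfr fell from 4.14 and 3.95 CPM to 1.59 and 1.33 CPM. The values of the ligand Il11 and its receptor chain Il11ra1 thus moved in opposite directions.

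Stat3 was at 40.3 and 43.5 CPM in normal sections and at 119 and 118 CPM in ischemic ones. Its log2 fold change was 1.5 ± 0.10 (SE, edgeR adjusted p = 3.54e-06), with the 2 sections of each group close together. Of the 11 Janus kinase and STAT genes, 6 rose and 3 fell, where 31.0% of all genes tested rose and 29.7% fell. Jak3, a kinase best known from lymphocytes, rose by a log2 fold change of 1.44, Stat5a by 0.63 and Jak1, a main kinase of gp130, by 0.61. Stat4, known from T cells and NK cells, fell by 2.02 on the log2 scale. T cell markers were lower, as was Stat4, while Jak3, Stat5a and Jak1 were higher: the summed level of the markers was 11.6 and 19.7 CPM in normal and 2.06 and 2.09 CPM in ischemic sections, with all 5 markers lower, none at 0, and their part in the result was not tested.

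Socs3 was at 1.27 and 2.93 CPM (47 and 81 counts) in normal sections and at 54.7 and 52.7 CPM (1859 and 1510 counts) in ischemic ones. The log2 fold change was 4.73 ± 0.26 (SE, edgeR adjusted p = 6.65e-07). Without normal section 1 the value was 4.2 and without normal section 2 it was 5.37. Of the other 9 inhibitors on the list, 4 rose and 1 fell, each by less than Socs3, and with Socs3 itself 6 of 10 passed, close to the 60.6% of all genes. Ptpn2, a phosphatase of Janus kinases and STATs, rose by 0.81 and Socs2 by 0.67 on the log2 scale, whereas Ptpn6, a phosphatase of blood cells, fell by 0.76. Socs1 (log2 fold change -0.31, edgeR adjusted p = 0.4999) and Cish (-0.02, 0.840) did not pass.

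Il1rn was at 0.325 and 1.01 CPM (12 and 28 counts) in normal sections and at 6.89 and 9.14 CPM (234 and 262 counts) in ischemic ones, a log2 fold change of 3.65 ± 0.40 (SE, edgeR adjusted p = 3.57e-05). The normal sections lay apart, and the value was 2.98 without normal section 1 and 4.57 without normal section 2. Among the other genes of the interleukin-1 family and its receptors, the decoy receptor Il1r2 rose from 0.244 and 0.471 CPM to 4.39 and 4.26 CPM, the signalling receptor Il1r1 rose by a log2 fold change of 1.37, and Il1b by 0.78. Of the 8 genes of this list that could be tested, Il1rn included, 6 rose and none fell (Il18, -0.33, and Il18r1, -0.04, did not pass in edgeR). Among all genes tested, 31.0% rose and 29.7% fell.

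Genes that STAT3 is known to induce were mostly higher: 17 of the 20 listed rose, 2 fell and 1, Lbp, did not pass, with a median log2 fold change of 1.70. Over all genes tested, 31.0% were higher and 29.7% lower. The list was drawn up with earlier results of these data known, so its count is a description and not a test of STAT3 activity. Lcn2, which encodes the iron-binding injury marker lipocalin-2, rose from 5.93 and 7.97 CPM to 2793 and 3284 CPM. Timp1, an inhibitor of matrix proteases, rose from 2.22 and 4.89 CPM to 288 and 298 CPM. The fibrinogen chains Fga, Fgb and Fgg rose by log2 fold changes of 3.34, 5.57 and 3.91, and the transcription factor Myc by 3.49. Fos, an immediate-early gene, fell by 0.61 and Hp, which encodes haptoglobin, fell by 0.85 on the log2 scale. Without the spots that hold fat, Hp was higher in ischemic sections (log2 fold change 1.88, edgeR adjusted p = 0.000542) and the list counted 19 higher and 0 lower. Some of the falls named so far were lost under an alternative. Ebi3 was lost in DESeq2 (adjusted p = 0.0741), in edgeR without composition scaling (0.254) and without either ischemic section. Stat4 was lost without ischemic section 1 (log2 fold change -1.88). Fos was lost in edgeR without composition scaling (adjusted p = 0.277), without the fat spots (0.0712) and without ischemic section 1 (log2 fold change -0.44). The fall of Hp was also lost in DESeq2 (adjusted p = 0.234) and in edgeR without composition scaling (0.170). It was lost as well without normal section 1 (log2 fold change -0.08) and without ischemic section 2 (-0.76). Many of these genes are also induced by other factors, and the list is one of known targets and not of STAT3 binding in this tissue.

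**Figure D2:**
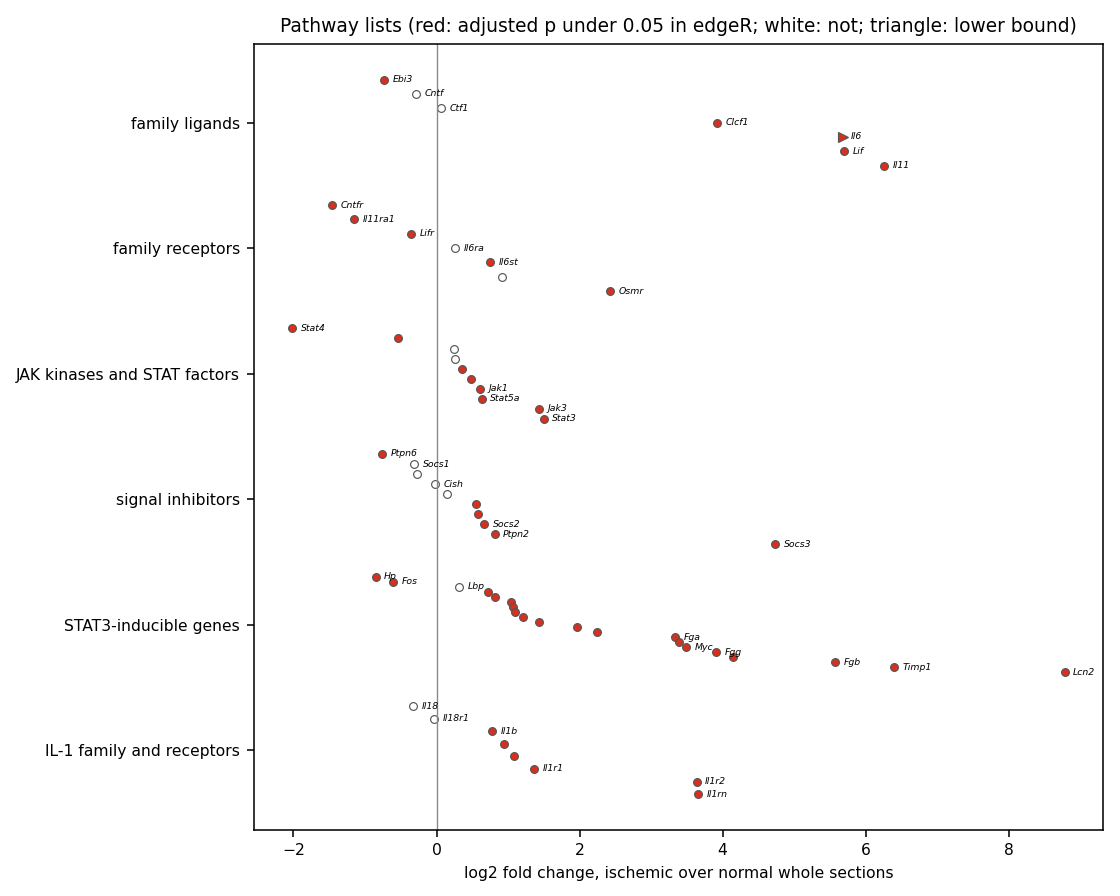
Log2 fold change, ischemic over normal whole sections, of tested genes on 6 pathway lists, labelled where the text names them, with genes that passed an adjusted p of 0.05 in edgeR in red and the others in white. The triangle for Il6 is a lower bound at a floor of 3 counts in the normal group, since it had no count in the normal sections. Ligands reach 6.26 (Il11) and STAT3-inducible genes 8.78 (Lcn2), while receptors lie between -1.47 (Cntfr) and 2.42 (Osmr).

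The share of spots with at least 1 count moved with the levels. Socs3 was counted in 1.80% and 2.57% of the spots of normal sections and in 44.4% (95% exact binomial interval 42.4 to 46.4) and 37.8% (35.9 to 39.7) of those of ischemic sections. With each spot thinned to 2000 UMIs, which left out 48 to 150 shallower spots per section, these shares were 0.270% and 0.685% against 12.6% and 12.2%, a ratio of 26. The thinned ratio was 51.5 for Lif, 13.5 for Il1rn, 5.36 for Osmr, 2.90 for Stat3 and 1.90 for Il6st. It was 0.997 for Lifr, whose thinned shares of 5.61% and 6.58% (normal) overlapped those of 5.78% and 6.37% (ischemic), and 1.28 for Il6ra, whose section pairs ranged from 0.78 to 2.2. The intervals cover counting error only.

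**Figure D3:**
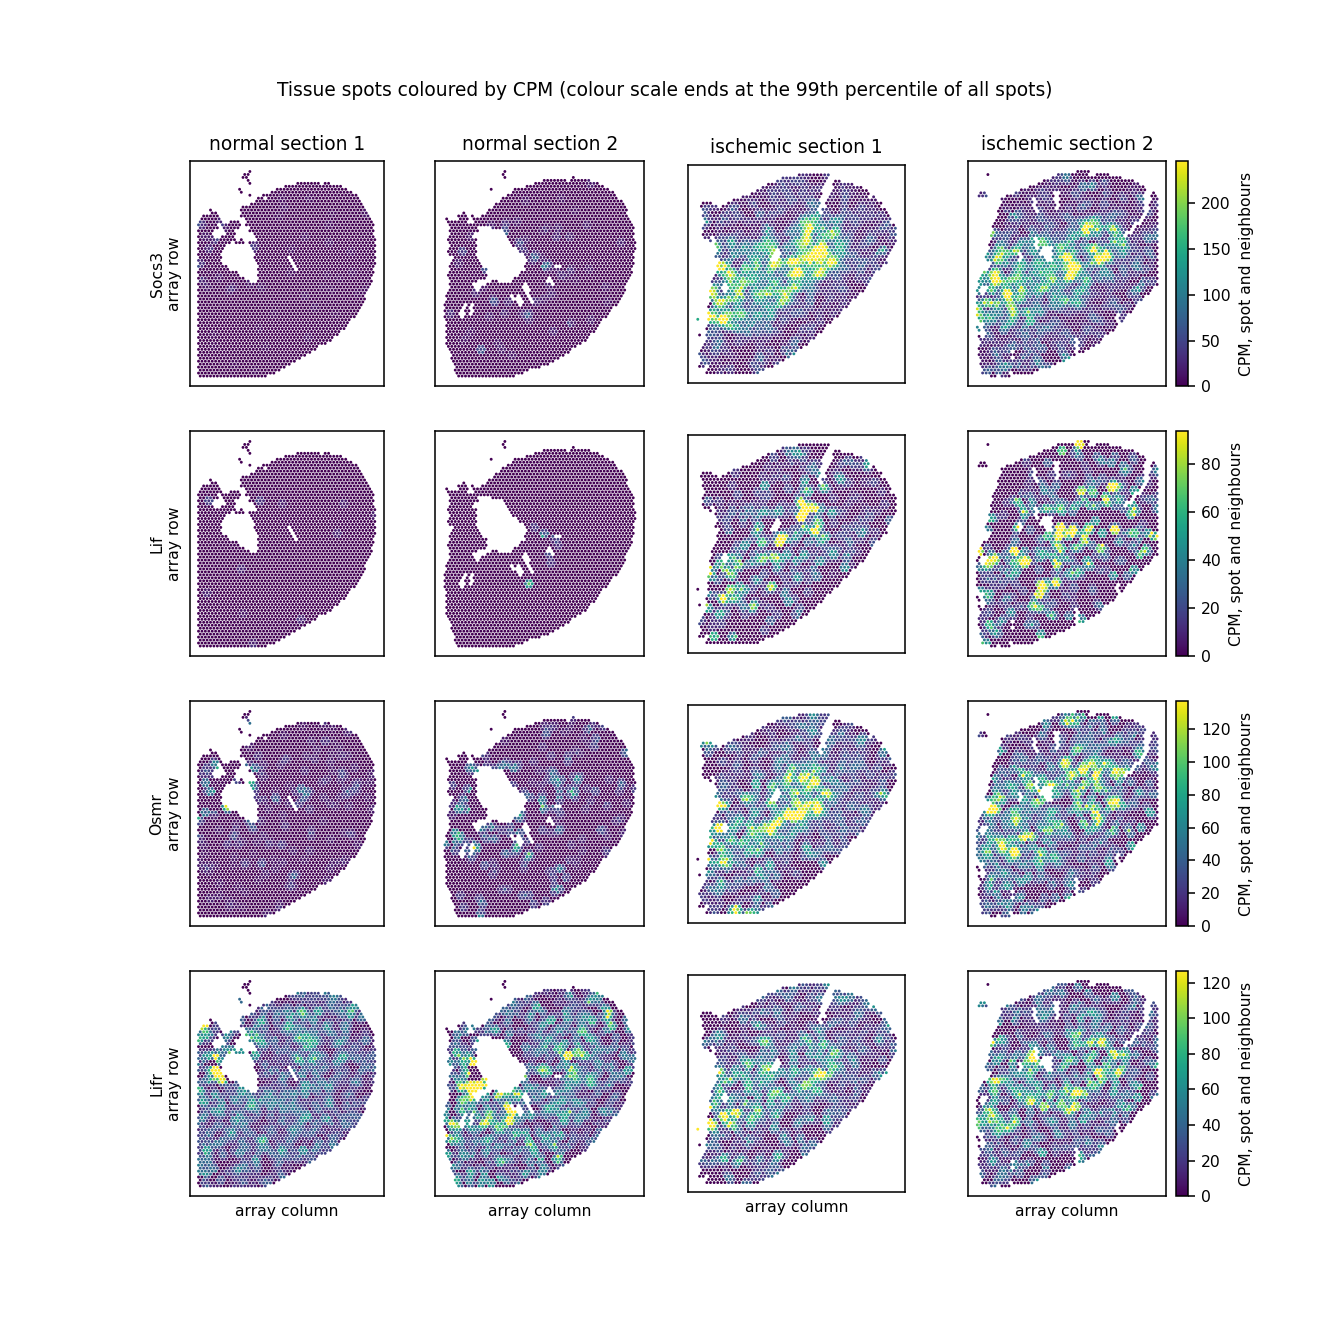
Tissue spots of the 4 sections, placed by array column and row, coloured by the CPM of Socs3, Lif, Osmr and Lifr summed over the spot and its neighbours, with colours ending at the 99th percentile of all spots. The CPM of the maps are not scaled for library composition. Socs3 and Osmr in the ischemic sections are brightest in the inner part of the kidney, and Lif is in scattered spots. On the unscaled measure, the sums of inner stripe and inner medulla spots lie at 120 to 140 CPM of Socs3.

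Levels differed between zones. Only Lifr of the 8 genes passed in edgeR for a change of the outer stripe against cortex difference, where 21.5% of all genes did. Il6ra (1.06 ± 0.55, SE) and Il1rn (1.89 ± 1.25, SE) had larger estimates of that change on the log2 scale, which did not pass. For ischemic against normal cortex, 7 of the 8 genes passed in edgeR, 6 higher and 1 lower, where 49.8% of all genes passed, 25.7% higher and 24.1% lower. In the outer stripe all 8 passed, 7 higher and 1 lower, against 67.4% of all genes, 34.5% higher and 32.9% lower. In the inner stripe 6 passed, all higher, against 43.2% of all genes, 20.2% higher and 23.0% lower. In the inner medulla 6 passed, 5 higher and 1 lower, against 27.4% of all genes, 11.1% higher and 16.4% lower. Among the pelvis spots 7 could be tested and 4 were higher, against 25.3% of all genes, 10.7% higher and 14.6% lower. Lif, Osmr, Stat3 and Socs3 were called higher in all 5 zones, though the pelvis values only describe those spots. Lif had 0 and 3 counts among the normal pelvis spots. Il1rn was called higher in each zone other than the pelvis, though its inner medulla call was lost without ischemic section 1 (log2 fold change 2.40).

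Lifr fell in the outer stripe, from 43.9 and 45.8 CPM in normal to 19.2 and 22.7 CPM in ischemic sections, a log2 fold change of -1.07 ± 0.116 (SE, edgeR adjusted p = 3.04e-08), and this call held under all 15 alternatives run, with values from -1.18 to -0.70. In the cortex it went from 31.9 and 28.0 CPM to 22.3 and 24.3 CPM (-0.35 ± 0.114, edgeR adjusted p = 0.0182), a call lost under 5 of the 15 alternatives: in DESeq2 (adjusted p = 0.108), without the composition scaling (0.376), without normal section 1 (0.0763) and without ischemic section 1 (0.203) or section 2 (0.0554). In the inner stripe it was at 40.4 and 45.7 CPM against 44.2 and 46.1 CPM, with a log2 fold change of 0.10 ± 0.17 (SE, edgeR adjusted p = 0.645). Within normal sections Lifr was higher in the outer stripe than in the cortex, by 0.57 ± 0.10 on the log2 scale (SE, edgeR adjusted p = 2.51e-04), and within ischemic sections that difference was -0.16 ± 0.12 (adjusted p = 0.322). The test of the change itself gave -0.73 ± 0.155 (SE, edgeR adjusted p = 0.00188), and Lifr was the only 1 of the 8 genes to pass it, where 21.5% of all genes did, 8.06% with a positive and 13.5% with a negative change. Without ischemic section 1 the adjusted p was 0.13 and without section 2 it was 0.0658, with values of -0.67 and -0.79. In ischemic sections injured tubule markers were highest in the same zone, with a summed level of 4468 and 4735 CPM in the outer stripe against 162 and 174 CPM in normal sections, with all 5 markers higher, and their part in the result was not tested. In normal sections the pelvis spots, at 1477 and 1338 CPM, and the inner medulla, at 532 and 570 CPM, were above the outer stripe in these markers.

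Socs3 in ischemic sections was lowest in the cortex, at 25.9 and 29.1 CPM, and was at 47.1 and 38.1 CPM in the outer stripe, 115 and 100 CPM in the inner stripe and 114 and 109 CPM in the inner medulla, where the ranges of the last pair overlap. Outer stripe exceeded cortex by a log2 difference of 0.64 ± 0.13 (SE, edgeR adjusted p = 6.06e-04), a call lost without ischemic section 1 (0.39, adjusted p = 0.323). In normal sections it was at 1.03 and 1.72 CPM in the cortex and 6.60 and 5.94 CPM in the inner medulla. The log2 difference between inner medulla and cortex was 2.02 ± 0.465 in normal and 2.02 ± 0.131 in ischemic sections (SE, edgeR adjusted p = 0.00314 and 1.87e-10), and the change of that difference was 0.00 ± 0.48. With ischemia its log2 fold change (± SE) was 4.39 ± 0.265 for cortex, 4.53 ± 0.28 for outer stripe, 5.17 ± 0.49 for inner stripe and 4.16 ± 0.295 for inner medulla. The inner stripe value rests on normal sections at 1.08 and 5.88 CPM (5 and 17 counts), and was 4.21 without normal section 1 and 6.58 without normal section 2.

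Osmr followed the same order of levels in ischemic sections, from 23.0 and 24.0 CPM in the cortex to 52.6 and 46.3 CPM in the inner stripe and 49.7 and 51.8 CPM in the inner medulla. Its log2 fold change with ischemia lay between 2.18 (inner medulla) and 2.53 (inner stripe) in these zones. Stat3 in normal sections had its lowest mean in the outer stripe, at 36.5 and 33.0 CPM, a range that the pelvis spots (34.8 and 64.1 CPM) overlapped, and was lower there than in the cortex by a log2 difference of -0.56 ± 0.137 (SE, edgeR adjusted p = 0.0043), a call lost without either ischemic section (adjusted p = 0.0686 and 0.0696), which in that fit also set the spread. With ischemia it reached 107 and 100 CPM there and 163 and 164 CPM in the inner stripe. Its log2 fold change ranged from 1.28 in the cortex to 1.65 in the inner stripe.

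Lif counts in normal sections were too few for a fold in the inner stripe, with 2 and 1 counts, and in the inner medulla, with 1 each. There the ratio of CPM was 58.4 (95% counting interval 19.7 to 285) and 36.9 (10.1 to 308). In ischemic sections Lif was at 8.62 and 10.7 CPM in the cortex, 15.4 and 20.9 CPM in the outer stripe, 20.2 and 26.5 CPM in the inner stripe and 28.6 and 25 CPM in the inner medulla. It was higher in the outer stripe than in the cortex by a log2 difference of 0.90 ± 0.19 (SE, edgeR adjusted p = 8.47e-04), and in the inner medulla by 1.49 ± 0.21 (adjusted p = 7.37e-06). The former call was lost without ischemic section 1 (adjusted p = 0.115) or section 2 (0.177).

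Il1rn had an order of its own. In normal sections it was highest among the pelvis spots, at 5.56 and 10.3 CPM (8 and 18 counts), with 0 and 2 counts in the outer stripe. In ischemic sections it was at 8.87 and 14.2 CPM (86 and 117 counts) in the outer stripe against 4.27 and 3.93 CPM in the cortex, a log2 difference of 1.44 ± 0.24 (SE, edgeR adjusted p = 7.16e-05), a call lost without ischemic section 2 (1.05, adjusted p = 0.0985). From normal to ischemic outer stripe the ratio of CPM was 102 (95% counting interval 28.0 to 852), and among the pelvis spots it was 1.90 (1.15 to 3.2, edgeR adjusted p = 0.0932). Neutrophil markers were also higher after ischemia, with a summed level of 1.71 and 2.17 CPM in normal and 162 and 161 CPM in ischemic sections. All 6 markers were higher, and Mmp8 was at 0 in both normal sections. By zone, neutrophil markers were highest in the ischemic outer stripe, at 334 and 338 CPM, and stood at 144 and 125 CPM in the ischemic inner medulla. Il1rn was at 13.5 and 11.3 CPM in the ischemic inner medulla and at 13.2 and 17.65 CPM among the ischemic pelvis spots. The part of neutrophils in the result was not tested.

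In the inner medulla Il6ra fell, and Il6st and Lifr did not pass the test. Il6ra was highest there in normal sections, at 7.55 and 5.94 CPM from 8 and 10 counts, and at 1.57 and 1.06 CPM from 5 and 3 counts in ischemic ones, a log2 fold change of -2.26 ± 0.58 (SE, edgeR adjusted p = 0.0182). That call was lost in DESeq2 (adjusted p = 0.0883), without either ischemic section and with zones scored from the spot alone, where the value was -0.77. In the outer stripe Il6ra was at 1.26 and 1.66 CPM in normal and 2.37 and 3.40 CPM in ischemic sections (log2 fold change 1.02 ± 0.38, edgeR adjusted p = 0.0184). This outer stripe call was lost in DESeq2 (adjusted p = 0.153) and in edgeR with zones scored from the spot alone (0.0787). It was also lost without normal section 1 or ischemic section 2. Il6st in the inner medulla was at 109 and 64.1 CPM in normal and 97.5 and 122 CPM in ischemic sections, with overlapping groups and a log2 fold change of 0.36 ± 0.28 (SE, edgeR adjusted p = 0.389). Adipocyte markers stood at 588 and 70.1 CPM in those normal spots and 0.315 and 1.06 CPM in the ischemic ones, and without the fat spots the log2 fold change of Il6st was 0.90 (adjusted p = 0.0183). Lifr in the inner medulla was at 33.0 and 42.8 CPM in normal and 31.8 and 31.4 CPM in ischemic sections, with a log2 fold change of -0.27 ± 0.21 (SE, edgeR adjusted p = 0.378). In the inner stripe Il6st went from 48.1 and 54.0 CPM to 110 and 109 CPM, a log2 fold change of 1.13 ± 0.17 (edgeR adjusted p = 6.95e-04).

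**Figure D4:**
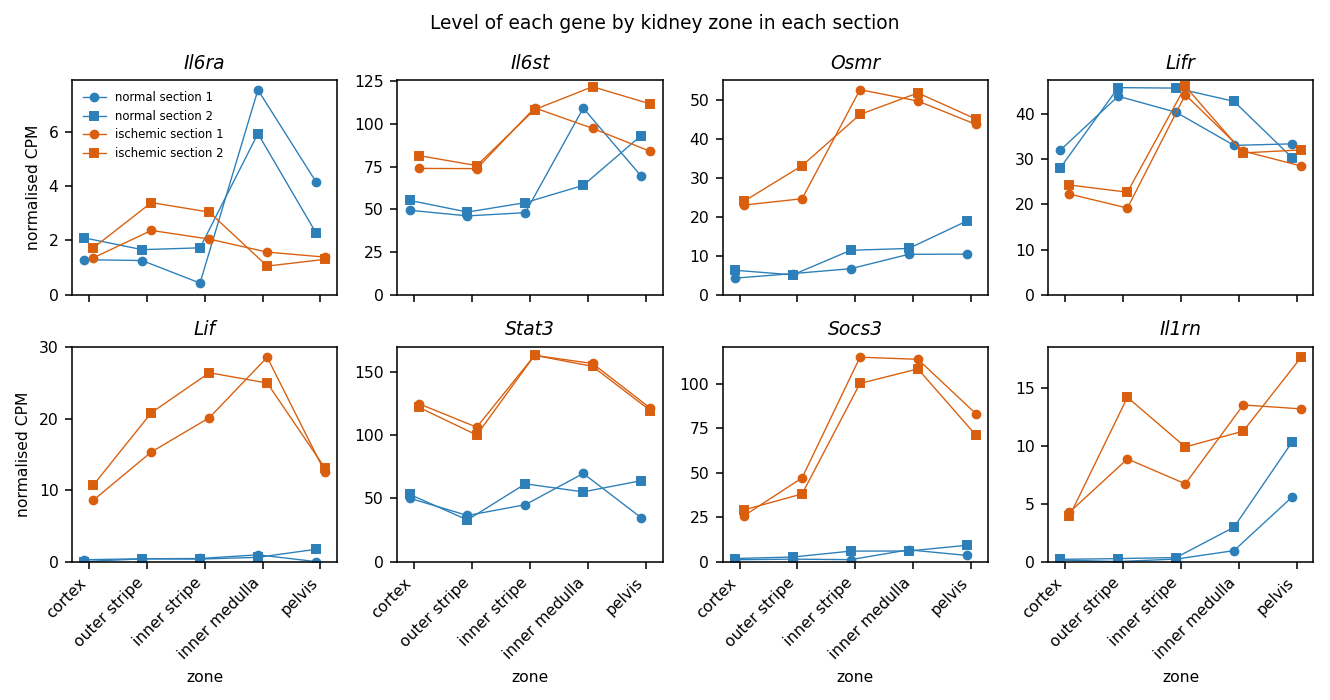
Normalised CPM of the 8 genes by zone, with a line for each normal (blue) and ischemic (orange) section. Lifr of the ischemic sections lies below that of the normal ones in the cortex and outer stripe (19.2 and 22.7 against 43.9 and 45.8 CPM) and meets it in the inner stripe, while Stat3 and Socs3 of the ischemic sections are above the normal ones in each zone.

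Between zones within a condition, the outer stripe differed from the cortex for 2 genes in normal sections (Lifr higher and Stat3 lower), against 22.8% of all genes, 12.5% higher and 10.3% lower. In ischemic sections it differed for 3 (Il1rn, Lif and Socs3, all higher), against 36.2% of all genes, 16.9% higher and 19.3% lower. The inner medulla was higher than the cortex for 5 genes in normal sections (Il1rn, Il6ra, Socs3, Il6st and Osmr), against 40.2% of all genes that differed, 19.6% higher and 20.6% lower. It was higher for 7 in ischemic sections, all but Il6ra, against 45.6% of all genes, 20.7% higher and 24.9% lower. No gene passed in edgeR for the change of the inner medulla difference with ischemia, where 13.0% of all genes did, 3.32% with a positive and 9.7% with a negative change. The 2 genes Il6ra and Il1rn had an unadjusted p under 0.05, and DESeq2 called 0. Leaving out a section moved these counts to between 1 and 2 (outer stripe, normal), 1 and 6 (outer stripe, ischemic), 2 and 5 (inner medulla, normal), 4 and 7 (inner medulla, ischemic) and 0 and 2 (change). For Il6st the difference in normal sections was 0.67 on the log2 scale and was lost without the fat spots (0.18, adjusted p = 0.458) and without normal section 1 (0.08, 0.780). In the same sections Il6ra was lost without normal section 1 (adjusted p = 0.0894), Osmr without either normal section (0.151 and 0.0843) and without the boundary spots (0.0713), and Il1rn without normal section 2 (0.362) and with zones from the spot alone (0.200). In ischemic sections Stat3, with a log2 difference of 0.33, was lost in DESeq2 (adjusted p = 0.0583), with no section block (0.137), with zones from the spot alone (0.186) and without either ischemic section (0.390 and 0.417). Il6st (0.138 and 0.327) and Lifr (0.255 and 0.106) were also lost there without either ischemic section.

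Within the ischemic sections, the genes were set against marker lists by comparing the 25% of spots with the highest summed marker level over the spot and its neighbours with all other spots. The CPM of this comparison are not scaled for library composition, unlike the normalised CPM of sections and zones. Socs3 was at 133 and 98.3 CPM in the spots richest in fibroblast and pericyte markers against 41.2 and 47.5 CPM elsewhere, ratios of 3.22 and 2.07. The spots richest in markers of macrophages and monocytes (ratios of 2.59 and 2.29) and of endothelium (2.60 and 2.13) were also higher in Socs3. In the spots richest in injured tubule markers it was at 43.1 and 35.0 CPM against 67.8 and 69.5 CPM, ratios of 0.636 and 0.504. Osmr, Lifr, Stat3 and Il6st had the same pattern, with ratios of 1.5 to 2.37 for fibroblasts and pericytes, 1.35 to 1.91 for macrophages and monocytes, 1.25 to 1.95 for endothelium and 0.562 to 0.772 for injured tubules. Il1rn had ratios of 1.65 and 2.08 for neutrophils and 1.3 and 1.9 for injured tubules. Lif had 1.31 and 1.46 for neutrophils 2.23 and 1.51 for fibroblasts and pericytes, 1.54 and 1.97 for macrophages and monocytes and 2.24 and 1.63 for endothelium.

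These ratios can hold zone differences as well as cell content, and the part of each was not tested. For fibroblasts and pericytes the ratio of Socs3 was 1.79 and 1.40 within the ischemic outer stripe and 1.11 and 1.54 within the cortex, lower than over whole sections. The outer stripe ratios were 1.63 and 1.37 for macrophages and monocytes and 1.82 and 1.56 for endothelium, and the cortex ratios were 1.4 and 0.834, and 1.22 and 1.56. Within the ischemic outer stripe alone, the ratio for injured tubules was 0.795 and 0.776 for Socs3 and 1.64 and 1.95 for Il1rn, and in the cortex it was 0.94 and 0.882 for Socs3 and 1.55 and 1.61 for Il1rn. The ratio of Il1rn for neutrophils was 1.99 and 2.08 in the outer stripe, but 1.89 and 0.508 in the cortex, where section 2 had 5 counts in the marker-rich spots. Depth differed too: the spots rich in injured tubule markers had a median of 15791 and 12404 UMIs against 10742 and 7829 elsewhere. Each section is 1 value, and no test was made.

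**Figure D5:**
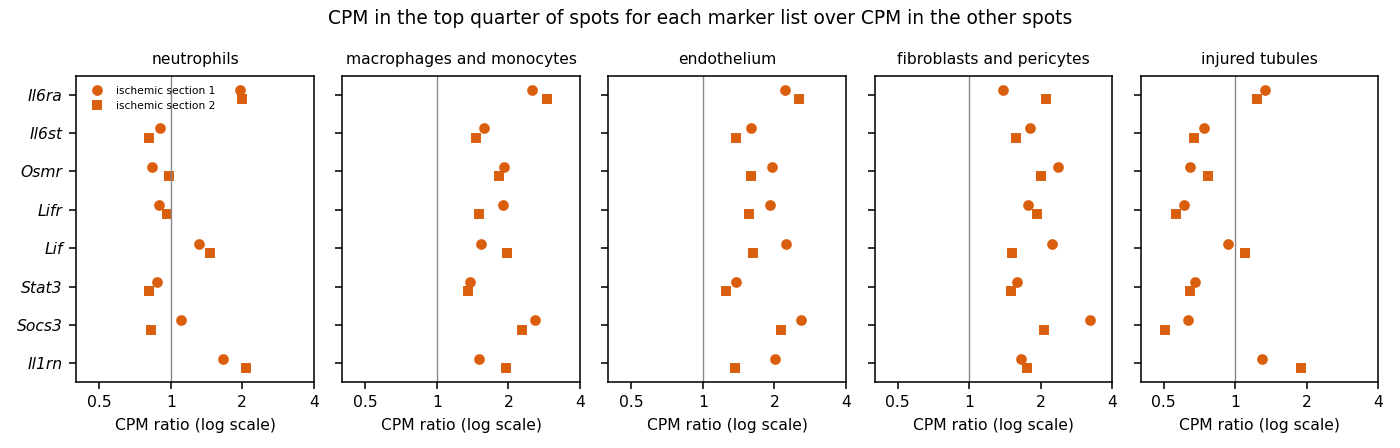
Ratio (log scale) of the CPM in the 25% of spots richest in each marker list to the CPM in all other spots, for the 8 genes in ischemic section 1 (circles) and section 2 (squares). Socs3 lies to the right of 1 for fibroblasts and pericytes (3.22 and 2.07) and to the left for injured tubules (0.636 and 0.504), and Il1rn lies to the right in both neutrophil (1.65 and 2.08) and injured tubule panels.

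Over the 20 section and zone values, the genes whose pattern was most like each of the 8, of 14140 compared and by Pearson correlation of log2(CPM + 1), are given, up to 2 for each, as a description, since the values share sections, depth and the step between conditions. They were Fblim1 and Egr2 for Socs3 (0.985 and 0.982), Gm12840 and Msn for Lif (0.982 and 0.981), Zfp36l1 for Osmr (0.98), Cd14 and Hilpda for Il1rn (0.977 and 0.969) and Pros1 and Kctd1 for Stat3 (0.972 and 0.965). For Il6st they were Col6a1 and St3gal1 (0.942 and 0.935), for Lifr Sim1 and Mpnd (0.864 and 0.848) and for Il6ra Mical1 and Lyve1 (0.843 and 0.827). Within the 10 values of each condition the correlation of Socs3 with Fblim1 was 0.875 in normal and 0.975 in ischemic sections. For Lif and Msn it was 0.391 and 0.774, below the value over both conditions together.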

How the data were processed

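The deposited counts are UMIs per gene and spot, made by the authors with Space Ranger (1.3.0 per the file headers; build mm10 in the submitters' processing notes). Counts were summed over tissue spots per section, and per section and zone. A spot took the zone whose marker list scored highest over the spot and up to 6 neighbours. Sections were compared with edgeR 4.0.16 (quasi-likelihood test, TMM scaling for library composition, filterByExpr, Benjamini-Hochberg over all genes tested, threshold 0.05), zone by zone for ischemia and in one fit with the section as a block for zone contrasts and their change. In that joint fit the p-values measure the spread left among section and zone sums after the section block, pooled over zones and conditions. Zone CPM use the scaling of the same fit. Alternatives included DESeq2 1.42.0, other scalings and filters, other zone rules, each section left out, and removal of spots with fat, which was chosen after seeing the data. The fits were tested on simulated data. All 8 genes, and per list the 2 largest rises and falls among called genes, are named. Further list genes (Clcf1, Jak1, Il1b, Myc, the fibrinogen chains and those that did not pass) were named after their values were seen. Some genes of the lists and of this rule are not reported here. The 8 genes and the lists were chosen with earlier results of these data known. Same-numbered sections are not stated to share a mouse or batch.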

Additional observations from a re-analysis of the deposited data

Results flagged for a closer look

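The difference of Lifr between outer stripe and cortex changed with ischemia, by -0.73 on the log2 scale (edgeR adjusted p = 0.00188), which singled it out because the test of the change itself was passed. The value was 44.8 ± 1.34 CPM in the normal outer stripe and 20.9 ± 2.48 CPM in the ischemic one (SD, n = 2 sections each), and 30.0 ± 2.76 and 23.3 ± 1.41 CPM in the cortex. The call was lost without ischemic section 1 (-0.67, adjusted p = 0.13) or section 2 (-0.79, adjusted p = 0.0658). The other alternatives kept it, with the value between -0.90 and -0.55.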

How the results depend on the processing

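Each count of called genes was recomputed under 11 to 15 alternatives. The counts for ischemic against normal sections stayed within 1.5 times of the main ones: 6 to 7 for whole sections, 6 to 7 in the cortex, 7 to 8 in the outer stripe, 6 to 7 in the inner stripe and 4 to 7 in the inner medulla. The zone contrasts moved more when a section was left out: outer stripe against cortex called 1 to 2 genes in normal and 1 to 6 in ischemic sections, and its change 0 to 2 (2 with no filter). The inner medulla against cortex called 2 to 5 in normal and 4 to 7 in ischemic sections, and its change 0 to 2 (1 with zones scored without Cryab). With a section left out, one group has a single section, which is assumed to vary like the others. With the replicate number as a block, the same number of the 8 genes was called as without it (7 for whole sections), and calls over all genes went from 9279 to 10089. Same-numbered sections deviated with a correlation of 0.159 over genes, from 2 pairs only. Of 1023 values for single genes, 958 kept direction and side of the threshold, 55 lost the call, 4 gained it and 6 changed sign. The sign changes were Il6ra over whole sections without normal section 1 (-0.003, range over sections left out -0.003 to 0.517), Il6ra in the cortex without composition scaling (0.11), without normal section 2 (0.23) and without ischemic section 1 (0.10, range -0.458 to 0.233), Il6st in the inner medulla without normal section 2 (-0.014, range -0.014 to 0.804), and Hp without fat spots (1.88). The cause was not tested, other than that the last setting removes fat. At this depth, Lif, Il1rn and Il6ra rest on fewer than 10 counts per section in several normal zones, and smaller differences there were not detectable.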
